A study of Caenorhabditis elegans with 6 samples.

Results

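The cyclin and cyclin-dependent kinase genes of the core cell cycle were followed as targets of small RNAs in Caenorhabditis elegans. The group was taken by gene name and holds 10 genes, 7 cyclin genes (cyb-1, cyb-2.1, cyb-2.2, cyb-3, cya-1, cyd-1 and cye-1) and 3 kinase genes (cdk-1, cdk-2 and cdk-4), out of 46761 features in each table. Each of the 10 names was found once in the tables of 3 small RNA classes, called 22G, 26G and 21U. The values are read counts per feature divided by a size factor of the library, called normalized counts here. They measure small RNAs counted over a gene and not its messenger RNA.

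All libraries came from whole gravid adults of strain BCN1050, which has the N2 background, the unc-119(ed3) mutation and the integrated transgene crgIs1002, a daf-21 promoter driving mCherry with the unc-54 3′ UTR, together with a functional unc-119 copy. The product of daf-21 is the heat shock chaperone Hsp90. In the High group the P0 animals had been kept at 25 °C, and in the Low group at 16 °C. From the L4 stage on, all animals lived at 20 °C, and RNA was taken from the F2 after 72 hours of growth at 20 °C, with 3 biological replicates in each group. The animals that were sequenced had therefore not been kept at 25 or 16 °C themselves, and the transgene was present in both groups.

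Cyclins activate cyclin-dependent kinases in turn through the cell cycle. Cyclin D with CDK-4 acts in the entry into the cycle, cyclin E with CDK-2 at the start of DNA synthesis, and cyclins A and B with CDK-1 in the entry into mitosis and meiosis. In the adult hermaphrodite nearly all dividing cells lie in the germ line and in the embryos held in the uterus. 22G RNAs are secondary small RNAs that RNA-dependent RNA polymerases make on target transcripts. Some are bound by CSR-1, whose targets are mostly genes expressed in the germ line, and others by WAGO Argonautes, which act in silencing, and the tables do not separate these.

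Depth differed by class. The 22G class held 1380170 to 2685999 reads per library, the 26G class 18704 to 37706 and the 21U class 37630 to 59648. Low replicate 1 had the fewest 22G reads and the most 26G reads. Its normalized 26G total was 57142, against 17491 to 25760 in the other libraries. Its normalized 21U total was 59360, against 41430 to 45567, while its 22G total lay among the others. The number in its library name also lies outside the run of the others, and its meaning is not given. All 10 genes had 22G reads in every library, 13813 in total, while 13 reads were of the 26G class and 56 of the 21U class. Whole worms were sequenced, so fewer cells that carry a small RNA and fewer small RNAs per cell cannot be told apart.

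The genes fell into tiers of 22G signal over the 6 libraries. The libraries of the groups lay apart for 2 of the genes, cyb-3 and cyd-1. Per kb of annotated exon, the mitotic kinase gene cdk-1 had 875 ± 34.0 normalized counts (SD over the 6 libraries). It stood higher per kb than 98.3% of the 12259 protein-coding genes with a 22G read. The cyclin A gene cya-1 followed with 194 ± 6.82 per kb, and the ranges of these genes over the 6 libraries overlapped neither each other nor that of any other member.

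A middle tier per kb was formed by cyb-2.2 with 121 ± 10.3, cyb-3 with 119 ± 41.1, cye-1 with 97.5 ± 7.65 and cyb-2.1 with 96.9 ± 9.60 normalized counts. Neighbours in this order had overlapping ranges. The B-type cyclin gene cyb-1 lay below them with 49.5 ± 5.76 per kb, and cdk-2 below that with 14.5 ± 2.92. The lowest members were the genes of the cyclin D complex, cdk-4 with 6.69 ± 2.00 and cyd-1 with 2.52 ± 1.3 per kb. Their ranges over the 6 libraries overlapped. In High, cdk-4 averaged 7.58 ± 2.08 and cyd-1 1.58 ± 0.53 per kb, with ranges apart. In Low they averaged 5.80 ± 1.82 and 3.47 ± 1.11 (SD, n = 3), with overlapping ranges. cyd-1 stood above 39.3% of the protein-coding genes with a 22G read.

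**Figure D1:**
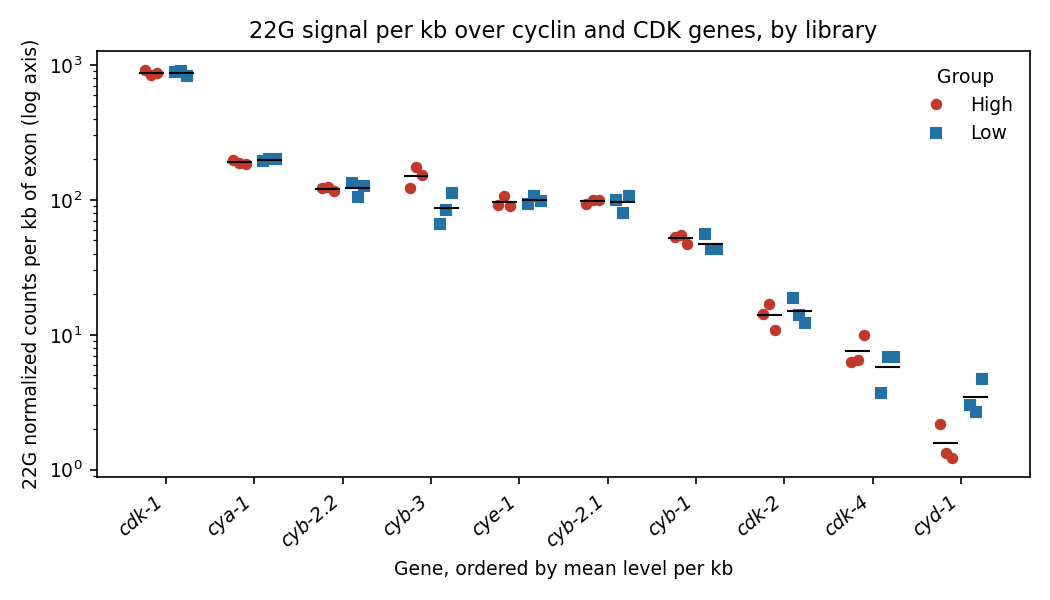
Normalized 22G counts per kb of annotated exon (log axis) for the 10 genes, ordered by their mean, with 1 point per library (red circles High, blue squares Low, n = 3 each) and a bar at each group mean. cdk-1 lies near 875 per kb in both groups, and cyd-1 averages 1.58 in High and 3.47 in Low. cyb-3 has the widest gap between its groups among the genes above 10 per kb.

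The place of cyb-3 in the middle tier differed by group. In High it averaged 151 ± 26.3 normalized counts per kb, above cyb-2.2 with 121 ± 4.70 and cye-1 with 95.9 ± 9.03. In Low it averaged 87.4 ± 23.2 per kb, below cye-1 with 99.1 ± 7.54 and cyb-2.1 with 95.9 ± 14.6 (SD, n = 3). In High the range of cyb-3 overlapped that of cyb-2.2 and lay above that of cye-1, and in Low the ranges of cyb-3, cye-1 and cyb-2.1 overlapped.

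The comparison between the groups asks whether 22G RNAs over these genes differed in F2 worms descended from P0 animals of the warm or the cool culture. Of the 10 genes, cyb-3 was called higher in High and 0 were called lower, with limma-trend over all 9402 features that had a mean of at least 5 normalized counts and an adjusted p under 0.05 (Benjamini-Hochberg). A share of 10.0% of the members called stands beside 8.30% of all tested features (5.64% higher and 2.66% lower), so the count is near the background. edgeR and DESeq2 made the same single call, and no other member had an unadjusted limma p under 0.05. Over all 9402 tested features, 1658 had such a p. The median log2 difference, High minus Low on the log2(normalized count + 1) scale, was 0.0054 over the 10 genes and 0.013 over all tested features, and 5 of the 10 were positive.

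The B-type cyclin genes gave unlike values. CYB-3, the cyclin B3 of the worm, is needed in the embryo for sister chromatids to separate. cyb-3 had 179, 256 and 225 normalized 22G counts across the High replicates, and its Low replicates, in the same order, gave 97.0, 122 and 164. All High libraries lay above all Low libraries, with a narrow gap between High replicate 1 and Low replicate 3. The groups lay apart in this direction for 12.8% of tested features. The means were 220 ± 38.4 in High and 128 ± 33.9 in Low (SD, n = 3), 1.72 times as high in High, and the log2 difference was 0.80 ± 0.18 (SE, 95% interval 0.39 to 1.205, limma adjusted p = 0.0189).

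The call of cyb-3 did not hold in every fit. Its adjusted p was 0.15 in limma without trend, 0.103 without High replicate 2, 0.163 without High replicate 3, 0.0504 without Low replicate 1 and 0.0731 without Low replicate 2. Low replicate 1 was both the shallowest library and the lowest for cyb-3, and without it the log2 difference was 0.62 ± 0.17 (SE). edgeR's quasi-likelihood test on recovered reads gave an adjusted p of 0.0293, or 0.0383 without Low replicate 1, and DESeq2 gave 0.00187.

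**Figure D2:**
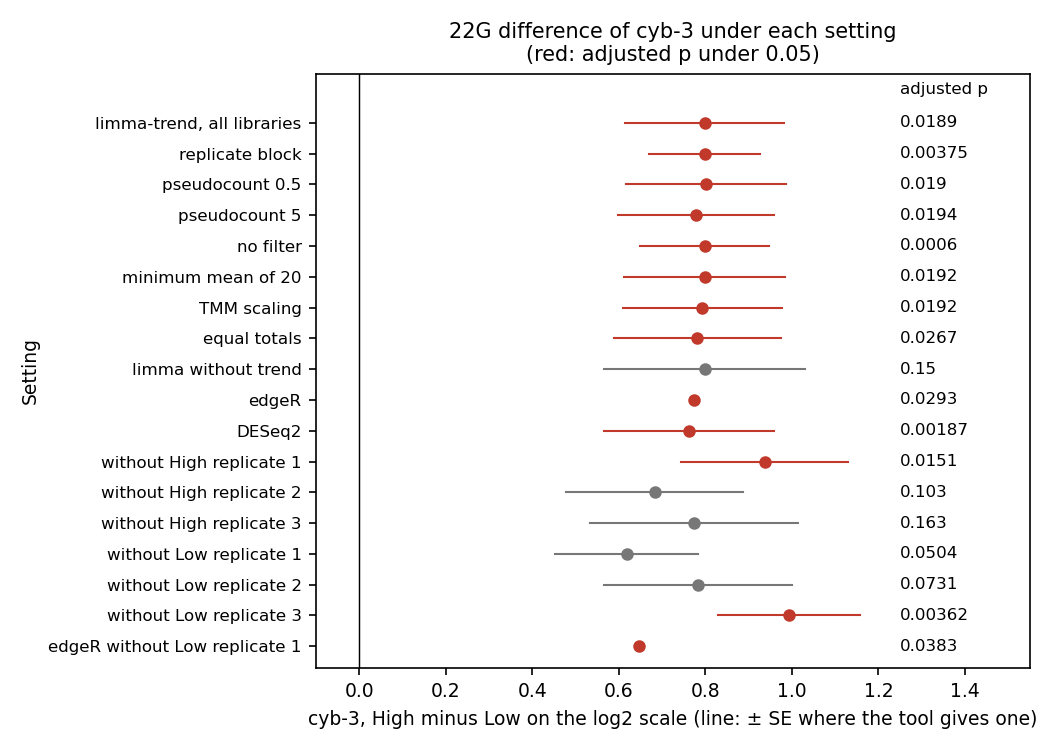
Log2 difference of cyb-3 in the 22G class, High minus Low, under each setting, with ± SE where the tool gives one and the adjusted p at the right (red under 0.05, grey above). Every setting shown gives a positive difference, from 0.62 without Low replicate 1 to 0.99 without Low replicate 3, and the adjusted p runs from 0.0006 to 0.163.

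CYB-1, a cyclin B partner of CDK-1, acts in mitosis and meiosis. cyb-1 had 90.3, 92.4 and 80.2 normalized 22G counts in High and 94.0, 72.6 and 73.0 in Low. The groups overlapped, since Low replicate 1 was the highest library of all. The log2 difference was 0.14 ± 0.14 (SE, 95% interval -0.17 to 0.45, limma adjusted p = 0.712). It was 0.26 without Low replicate 1, 0.077 without Low replicate 2 and 0.082 without Low replicate 3.

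The genes cyb-2.1 and cyb-2.2 encode closely related B-type cyclins. cyb-2.1 had 119, 127 and 127 normalized 22G counts in High and 127, 101 and 137 in Low. cyb-2.2 had 163, 167 and 155 in High and 179, 139 and 169 in Low. Both were lowest in Low replicate 2 and their groups overlapped. The log2 differences were 0.042 ± 0.13 for cyb-2.1 and -0.00024 ± 0.11 for cyb-2.2 (SE, limma adjusted p = 0.922 and 0.999).

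The ratio of cyb-2.2 to cyb-2.1 counts lay between 1.22 and 1.41 in all 6 libraries. No source used here states how reads that map to both copies were counted, so the split between these genes is uncertain. Neither had the same values as another feature, and cyb-3 overlapped no other annotated gene.

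**Figure D3:**
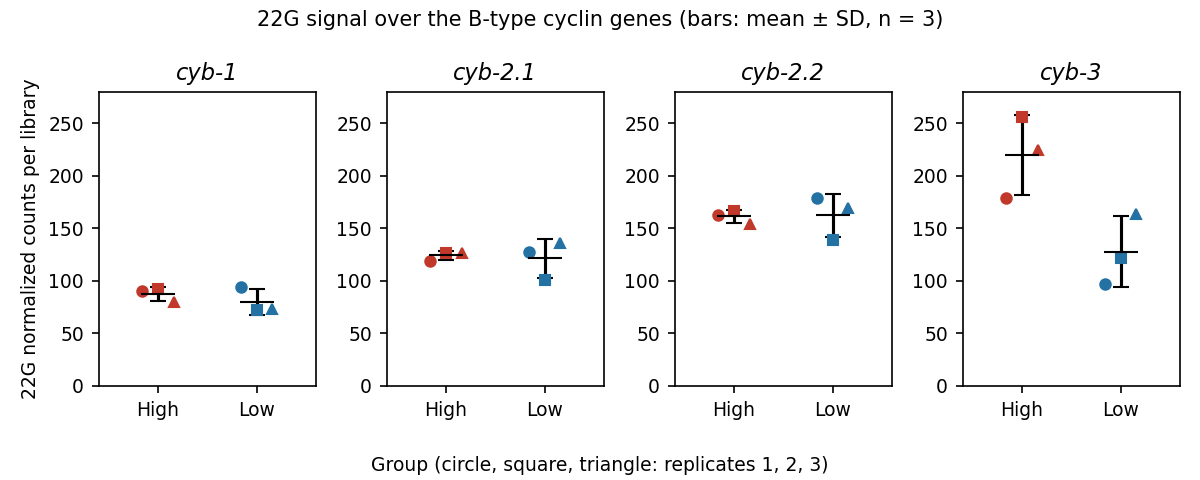
Normalized 22G counts of the 4 B-type cyclin genes in each library (circle, square and triangle for replicates 1, 2 and 3, red High, blue Low), with mean ± SD (n = 3). For cyb-3 the High libraries, at 179 to 256, lie above the Low libraries, at 97.0 to 164, while the groups of the other B-type genes overlap.

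The cyclin A gene cya-1 was among the steadiest members. It had 414, 391 and 385 normalized 22G counts in High and 402, 419 and 415 in Low, with groups that overlapped. The log2 difference was -0.056 ± 0.071 (SE, 95% interval -0.21 to 0.10, limma adjusted p = 0.788). The annotation places 107 bases of its exons opposite exons of dos-1, and the strand counted is not given, so reads there cannot be told apart.

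Cyclin E with CDK-2 drives DNA synthesis and, in the worm germ line, also keeps stem cells dividing. cye-1 had 194, 225 and 190 normalized 22G counts in High and 195, 227 and 206 in Low, with overlapping groups (-0.049 ± 0.10 on the log2 scale, SE, limma adjusted p = 0.877). Its kinase gene cdk-2 had 33.0, 39.1 and 25.37 in High and 43.9, 32.8 and 28.6 in Low, again with overlapping groups (-0.11 ± 0.23, limma adjusted p = 0.881). cdk-2 shares exon bases with the annotated noncoding genes K03E5.9 (100 bases) and anr-45 (76 bases, on the other strand), so some of its reads may belong to these.

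Cyclin D with CDK-4 acts mainly in the cell divisions of larval development. cyd-1 had 4.404, 2.66 and 2.46 normalized 22G counts in High and 6.06, 5.35 and 9.53 in Low, which rest on 10 reads in High and 20 in Low. All Low libraries lay above all High libraries, as they did for 9.97% of tested features. The log2 difference was -0.93 ± 0.47 (SE, 95% interval -1.98 to 0.12) and did not pass (limma adjusted p = 0.361). cyd-1 reached the minimum for a test, with a mean of 5.08, only through its Low libraries. cdk-4 had 7.71, 7.99 and 12.3 in High and 4.55, 8.40 and 8.47 in Low, with overlapping groups (0.36 ± 0.40, limma adjusted p = 0.743). With 1 library left out this difference ran from 0.10 without Low replicate 1 to 0.49 without Low replicate 3, and it was 0.16 without High replicate 3.

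The kinase gene cdk-1, whose product drives mitosis with its cyclins, carried more 22G signal per kb than the other members in every library. It had 1084, 1005 and 1032 normalized counts in High and 1043, 1076 and 980 in Low. The groups overlapped, and the log2 difference was 0.011 ± 0.064 (SE, 95% interval -0.13 to 0.15, limma adjusted p = 0.962). At this depth the interval does not hold a change of 2-fold in either direction.

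Among the 9 members that were not called, the 95% interval lay within 2-fold for 7, between bounds of -0.62 and 0.45 on the log2 scale. For cyd-1 and cdk-4, the members with the fewest reads, it did not. Groups lay apart for 2 of the 10 genes (20.0%), cyb-3 and cyd-1, beside 22.7% of all tested features.

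**Figure D4:**
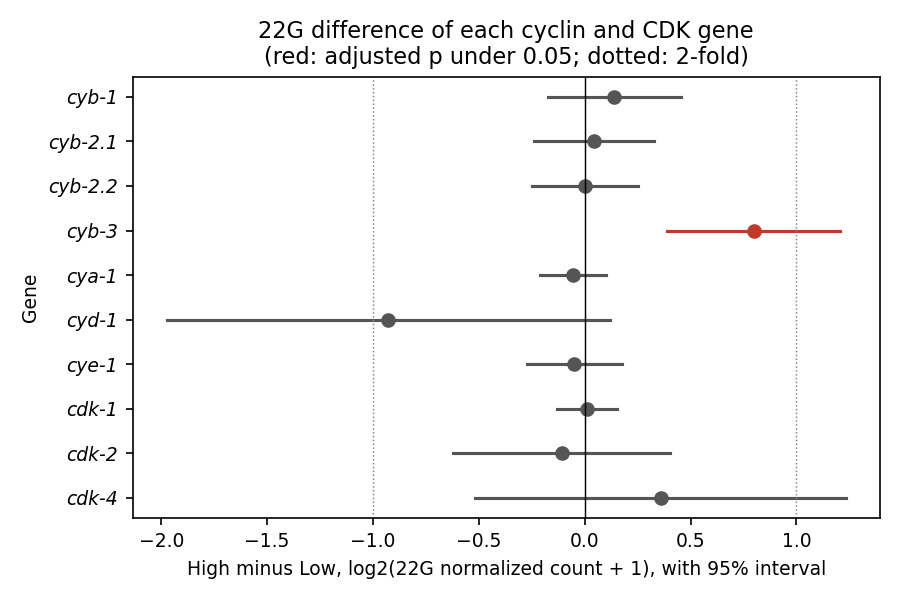
Log2 difference of 22G signal, High minus Low, for each gene, with its 95% limma interval (red where the adjusted p is under 0.05, dotted lines at 2-fold). cyb-3 stands at 0.80 with an interval of 0.39 to 1.205, cyd-1 and cdk-4 have the widest intervals, and the intervals of the other 7 genes hold 0 and stay inside 2-fold.

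Libraries of the same group differed more for cyb-3 than for the other members relative to counting error. The SD of cyb-3 was 2.70 times the SD that counting alone gives in High and 2.88 times in Low. Over the other 9 genes this ratio ran from 0.43 (cyb-2.1 in High and cya-1 in Low) to 1.58 (cyb-2.1 in Low). The spread of cyb-3 within groups, 0.323 on the log2 scale, was larger than that of 97.3% of the 1315 tested features of similar level. cya-1 lay at the other end, with a spread of 0.0456 that was larger than that of 5.9% of 542 such features. limma-trend draws the spread of each gene towards that of features of similar level. For cyb-3 its SE was 0.18, against 0.23 in limma without trend, where the limma adjusted p was 0.15.

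The difference of cyb-3 was also set against that of each other member within the same libraries. The log2 ratio of cyb-3 to cya-1 was -0.86 ± 0.31 in High and -1.71 ± 0.36 in Low (SD, n = 3), a difference of 0.85 (exact permutation p = 0.1, two-sided). The ratio of cyb-3 to cyb-2.2 was 0.43 ± 0.26 in High and -0.37 ± 0.45 in Low, a difference of 0.80 (exact permutation p = 0.1). The groups lay apart for the ratios to cyb-2.1, cyb-2.2, cya-1, cye-1 and cyd-1. The ratio to cyd-1 is not read further, since cyd-1 had only 10 reads in High and 20 in Low. It also reached the minimum mean only through its Low libraries. They overlapped for the ratios to cyb-1 (difference 0.66), cdk-1 (0.79), cdk-2 (0.91) and cdk-4 (0.44). Without Low replicate 1 the difference was 0.36 for the ratio to cyb-1 and 0.56 for the ratio to cdk-2, and without High replicate 2 it was 0.24 for the ratio to cdk-4.

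None of these 9 differences of ratios passed, with exact permutation p-values of 0.1 to 0.3, or 0.18 to 0.3 after adjustment over the 9. With 3 libraries against 3 the exact test cannot give a p below 0.1, so none of them could have passed. cyb-3 was picked with its result known and is in all 9 ratios, so they are not independent of each other. They use the same cyb-3 values as its call and give no separate support for it.

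The summed 22G signal of the 10 genes was 2289, 2313 and 2233 normalized counts in High and 2191, 2204 and 2191 in Low, between 0.105% and 0.112% of the class in every library. All High sums lay above all Low sums. Without cyb-3 the sums were 2110, 2057 and 2008 in High and 2094, 2082 and 2027 in Low, with overlap between the groups.

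Few reads of the other classes fell on these genes, and no member reached the mean of 5 that a test needed there. The 26G class is named after primary small RNAs bound by ERGO-1 or by ALG-3 and ALG-4. In it cya-1 had 5 reads over the 6 libraries, cdk-1 had 4, cye-1 had 3 and cyb-2.2 had 1. The 4 reads of cdk-1 were all in High, 1, 2 and 1 by replicate. The other 6 genes had 0 reads, which allows up to 3 reads in the 6 libraries for counting error.

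The 21U class is named after piRNAs, which are bound by the Argonaute PRG-1. Here cdk-1 had 28 reads, 1, 10 and 3 in High and 2, 9 and 3 in Low, with 14 in each group. cya-1, cyb-1 and cyb-3 had 7 reads each. cyb-2.2 had 4 reads, all in High, while cye-1 had 2 and cyb-2.1 had 1, all in Low. cyd-1, cdk-2 and cdk-4 had 0 reads in both of these classes. Over all features of these classes limma called 0 of 272 in 26G (0%) and 1 of 592 in 21U (0.169%).

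Other genes of the cell cycle were taken from 5 lists of 96 names, of which 92 were in the tables and 90 passed the minimum mean in the 22G class. Among the 90, 0 were higher in High and 1 was lower, which is 1.11% beside 8.30% of all tested features (limma adjusted p under 0.05). edgeR and DESeq2 also called 1 each, the same gene. An unadjusted limma p under 0.05 was found for 5 of the 90, beside 1658 of the 9402 tested features. Their median log2 difference was 0.038. The groups lay apart for 9 of the 90 (10.0%), beside 22.7% of all tested features.

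The gene called was gfi-3, which encodes a subunit of the anaphase-promoting complex, the ubiquitin ligase that marks B-type cyclins for destruction. It had 83.7, 83.5 and 78.6 normalized 22G counts in High and 155, 179 and 145 in Low. The groups were far apart, with every Low library above every High library. The log2 difference was -0.95 ± 0.12 (SE, 95% interval -1.203 to -0.69, limma adjusted p = 0.000223), and the call was made in each of 17 alternative settings.

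The other 18 tested genes of the anaphase-promoting complex and SCF list were not called. Its most abundant members were mat-2, a subunit of the same complex, with 439 ± 1.54 normalized counts in High and 437 ± 12.0 in Low, and fzr-1, a Cdh1-type activator of it, with 212 ± 24.8 and 228 ± 22.6 (SD, n = 3). The median log2 difference of the 19 genes was 0.076, with 13 positive.

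Of 13 other cyclin and kinase genes, most of them acting in transcription, 0 were called by limma, with a median of 0.04 and differences from -0.17 to 0.22. The most abundant were the cyclin T gene cit-1.2, with 554 ± 38.5 normalized counts in High and 503 ± 34.1 in Low, and its kinase gene cdk-9, with 314 ± 25.18 and 271 ± 22.4. cdk-9 was the 1 gene of this list with an unadjusted limma p under 0.05, and it did not pass (95% interval 0.0010 to 0.42, limma adjusted p = 0.28).

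Of 17 tested CDK regulators and Rb and E2F genes 0 were called, with a median log2 difference of 0.034. The Rb gene lin-35 averaged 380 ± 34.7 normalized counts in High against 379 ± 46.6 in Low, and the phosphatase gene cdc-14 had 263 ± 11.5 and 270 ± 6.41. Of 16 mitotic kinase and checkpoint genes 0 were called, with a median of 0.034. The meiotic checkpoint kinase gene chk-2 had 868 ± 31.4 in High and 874 ± 21.6 in Low, and the INCENP gene icp-1 had 867 ± 23.6 and 824 ± 49.5. Of 25 DNA replication genes 0 were called, with a median of 0.03, and the replicative helicase genes mcm-2 and mcm-7 had 760 ± 20.4 against 787 ± 43.5 and 370 ± 3.71 against 357 ± 8.37 (SD, n = 3).

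**Figure D5:**
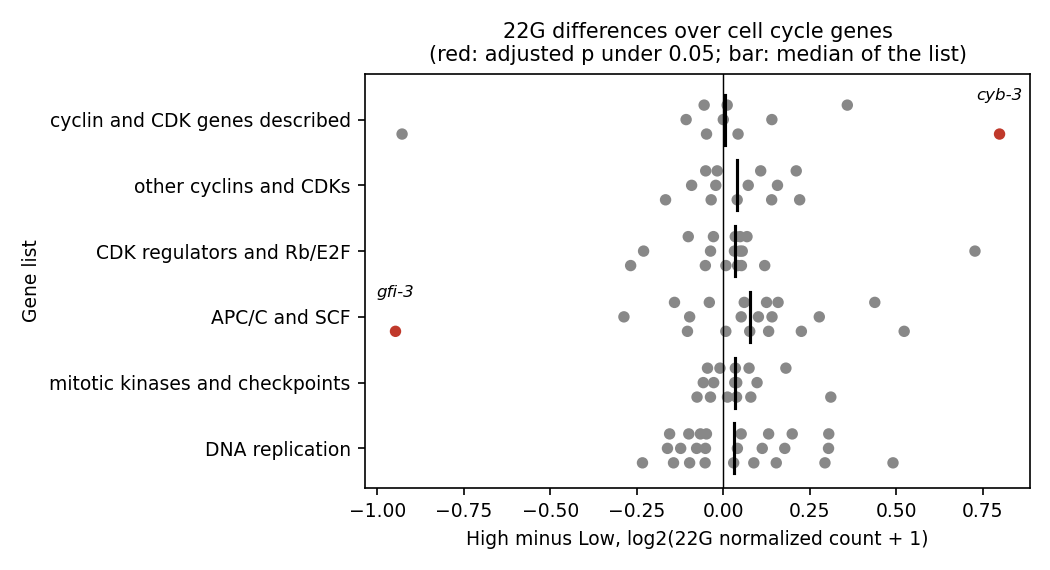
Log2 difference of 22G signal, High minus Low, for each tested gene of the cyclin and CDK group and of 5 lists of other cell cycle genes, with a bar at each median (red where the adjusted p is under 0.05). cyb-3 at 0.80 and gfi-3 at -0.95 are the genes called, and the medians of the lists lie between 0.0054 and 0.076.

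Lists of oocyte, sperm and yolk genes were also followed. Of 15 oocyte, 16 sperm and 6 yolk genes in the tables, 13, 3 and 6 passed the minimum mean in the 22G class. Of those tested, 0, 0 and 0 were called by limma, with median log2 differences of -0.049, -0.077 and -0.20. edgeR and DESeq2 called 0 of them too. An unadjusted limma p under 0.05 was found for 1 oocyte gene, beside 1658 of the 9402 tested features. The groups lay apart for 2 of the oocyte genes (15.4%), 0 of the sperm genes and 3 of the yolk genes (50.0%), beside 22.7% of all tested features, and 1 of the 6 yolk genes had a positive difference. Small RNAs over a gene do not measure its expression, so these lists give no check of the tissue, and their part in the result for cyb-3 was not tested.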

How the data were processed

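Small RNA libraries of 3 High and 3 Low cultures were made by the authors from 1 µg of total RNA, treated with phosphatase and polynucleotide kinase, with inserts of 18 to 36 bp and reads of 50 nt, per the labels' protocols. Per the submitters' processing notes, the tools were DESeq2 1.8.1, featureCounts 1.4.6, Bowtie 1.1.1 and cutadapt 1.7.1. No source used here gives the genome build, their settings, the class definitions, the annotation, the strand or the treatment of reads with several places. The deposited tables hold a signal, a read count divided by 1 size factor per library. All nonzero values were whole multiples of 1 step within 0.01 reads (100%), so whole reads were recovered.

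Features with a mean of at least 5 were tested on the log2(normalized count + 1) scale with the limma-trend method (limma 3.58.1 in R 4.3.3), two-sided, with adjustment within each class. Errors are SD for means and SE for differences. Exon lengths and overlaps come from Ensembl release 115 (WBcel235), matched by name. The build of the files is unknown, so no coordinates are given and values per kb are approximate. The SD from counting is that of Poisson counts of each library. Features of similar level lie within 0.5 on the log2 scale. The log2 ratios of cyb-3 to each other member used an exact permutation test over 20 assignments.

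The members, lists and tests were chosen with earlier results of these data known. Named genes are the 10 members and, in each list, genes past the threshold and the 2 with the highest mean. The alternatives were TMM scaling or equal totals, a minimum mean of 20 or no filter, a pseudocount of 0.5 or 5, replicates as a block, limma without trend, edgeR 4.0.16 and DESeq2 1.42.0 on recovered reads, each library left out and, chosen after seeing the data, edgeR without Low replicate 1. The fit was run on simulated counts with known changes and no added library or batch effect. This checks the code and not the call of cyb-3. The limma p-values rest on the spread between these cultures after it is moderated by the spread of other features. Floors cover counting error only. Figures used Matplotlib 3.10.9.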

Additional observations from a re-analysis of the deposited data

How the results depend on the processing

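The 22G count of 780 called features stayed within 1.5 times under all 17 alternatives, between 563 and 752 with 1 library left out. cyb-3 was positive throughout, 0.62 to 0.99 with 1 library left out. Members called went from 1 to 0 in limma without trend and ranged from 0 to 1 with 1 library left out. The cause was not tested. In the 22G class, deviations of libraries with the same replicate number had correlations of 0.03, 0.05 and 0.02. Those with unlike numbers had -0.08 to 0.04. With 3 libraries per group this cannot show whether the numbers pair the samples. The replicate block gave 782 calls, cyb-3 among them (limma adjusted p = 0.00375). In the 26G class limma called 0 of 272 (3 at an unadjusted p under 0.05), 0 to 1 with 1 library left out, and edgeR 0, DESeq2 11 and edgeR without Low replicate 1 called 8. The median log2 difference of this class was -0.53, and 0.033 after TMM scaling. With 1 library left out it ran from -0.86 without Low replicate 2 to -0.22 without Low replicate 1. In the 21U class the median was -0.38, and -0.015 after TMM scaling. It ran from -0.43 without Low replicate 2 to -0.29 without Low replicate 1. There limma called 1 of 592, the replicate block 0, no filter 28, a minimum of 20 gave 2, TMM scaling 3, edgeR 2, edgeR without Low replicate 1 11, and leaving out 1 library 0 to 33. With no filter 4 members entered the 26G test and 7 the 21U test, and 0 and 0 were called by limma; no member entered under a minimum mean. Differences near 0 changed sign: cdk-1 was -0.0057 with equal totals and -0.0079 in DESeq2, lin-35 -0.0094, -0.016 and, in edgeR, -0.0043, and mat-2 -0.0096 and -0.012. In edgeR without Low replicate 1, cyb-2.2 was 0.076, cdk-2 0.064, lin-35 -0.087, mat-2 -0.011 and chk-2 0.0099. With 1 library left out, cyb-2.1 ranged from -0.085 to 0.13, cyb-2.2 from -0.11 to 0.073, cye-1 from -0.12 to 0.0096, cdk-1 from -0.026 to 0.041, cdk-2 from -0.25 to 0.061, lin-35 from -0.094 to 0.082, mat-2 from -0.0094 to 0.029 and chk-2 from -0.034 to 0.018. With cyd-1 set aside, the differences of the ratios of cyb-3 stayed positive with 1 library left out, from 0.24 (cdk-4) to 1.23 (cdk-2). These ratios share the cyb-3 values and give no separate support for its call. Depth limits cyd-1 and cdk-4, with 30 and 53 reads of the 22G class over 6 libraries. A minimum of 20 gave these genes no test, and DESeq2 gave cyd-1 no adjusted p.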
